A study of Homo sapiens with 26 samples.

Results

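The 84 genes described here encode the proteins of the cytosolic ribosome. They were chosen by name from the 26313 named genes of the authors' merged transcript annotation, as RPL or RPS symbols with a number and an optional A, L, X, Y or L1 ending, together with RPLP0 to RPLP2 and RPSA, and without pseudogenes and S6 kinase genes. Of these, 77 are referred to as core genes and 7 are paralogs with an L or L1 ending (RPL3L, RPL7L1, RPL10L, RPL22L1, RPL26L1, RPL39L and RPS27L). The core genes comprised 46 of the large and 31 of the small subunit.

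Expression was measured in HCT116 cells, a human colorectal cancer line, by stranded total RNA sequencing of 12 libraries, and binding by FLAG ChIP-seq of 7 libraries with 7 inputs. The RNA groups were 3 libraries with a hairpin against no target (shNT), 3 with a hairpin against ZBTB24 (shZBTB24), 2 from lines that stably express the FLAG tag alone, 2 from lines that express FLAG-ZBTB24 (lines 5 and 11), 1 from a DNMT3B genetic knockout line and 1 from wild-type cells (WT) without tag or hairpin. ChIP-seq used 2 tag-only, 3 FLAG-ZBTB24 and 2 FLAG-DNMT3B lines. Hairpin and FLAG lines were made by lentiviral infection and puromycin selection, and each FLAG line is a single-cell clone, so that differences between clones enter each comparison of the FLAG lines. The labels do not state that libraries of a hairpin group were grown as separate cultures, so p-values reflect variation among those libraries that may be technical. ZBTB24 is a zinc finger transcription factor and DNMT3B a de novo DNA methyltransferase, and mutations of either cause ICF syndrome, an immunodeficiency with centromeric instability.

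Ribosomal protein genes are among the most highly expressed genes of dividing cells. Their mRNAs are short and most begin with a C followed by a run of pyrimidines, the terminal oligopyrimidine (TOP) motif, through which their translation responds to the growth kinase mTOR. Many of them carry small nucleolar RNAs (snoRNAs), guides of rRNA modification, in their introns. In the annotation used here, the shortest mRNA of a member had a median length of 711.5 nucleotides, against 2430 nucleotides over 19230 genes with a coding transcript, and 27 of the 84 genes (32.1%) held at least 1 snoRNA gene on the same strand.

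Promoter sequences of RefSeq (GRCh38.p14, 250 bases before and 50 bases after a transcript start) were found for 67 of the 84 members. A transcript start with a C followed by 4 pyrimidines was found for 47 of these 67 genes (70.1%), against 5.14% of 27305 genes with a sequence. The 30 bases around the start, 10 before and 20 after, are shown for 8 members to illustrate this feature, with the run of pyrimidines that begins at the first transcribed base in capitals. The first 3 belong to genes listed for the ZBTB24 knockdown, RPLP0 (chr12:120201092-120201121, minus strand), RPL13A (chr19:49487598-49487627, plus strand) and RPS16 (chr19:39435930-39435959, minus strand). The next 3 belong to genes listed for FLAG-ZBTB24, RPL39 (chrX:119791611-119791640, minus strand), RPS21 (chr20:62387093-62387122, plus strand) and RPS27 (chr1:153990752-153990781, plus strand). The last 2 lack the feature, RPL3 (chr22:39319604-39319633, minus strand), whose run is 4 bases long, and the paralog RPS27L (chr15:63157458-63157487, minus strand), which has no pyrimidine at its first base.
RPLP0: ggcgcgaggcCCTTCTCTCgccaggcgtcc
RPL13A: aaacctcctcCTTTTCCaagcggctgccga
RPS16: ccctagctttCCTTTTCCggttgcggcgcc
RPL39: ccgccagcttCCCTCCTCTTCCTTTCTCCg
RPS21: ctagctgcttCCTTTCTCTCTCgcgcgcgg
RPS27: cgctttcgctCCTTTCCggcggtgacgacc
RPL3: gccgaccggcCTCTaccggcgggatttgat
RPS27L: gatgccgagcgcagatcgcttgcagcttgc

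The expression tables give 1 pooled value per group in FPKM (fragments per transcript length and mapped fragments, a level that can be compared between genes), so values per library, their spread and the depth behind each value are unknown. Each table lists part of the loci. The knockdown and FLAG-ZBTB24 tables start at an absolute log2 fold change of 0.50 and the knockout table at 1, so an unlisted gene may have changed less, been filtered out or not been tested. A locus that names several genes was counted once. Ribosomal protein genes have many processed pseudogenes, and the sources used here do not say how reads shared with such copies were counted, so levels are uncertain to that extent. The hairpin's target ZBTB24 was not listed for the knockdown, the locus of MICAL1 and ZBTB24 was at 17.8 FPKM with the tag alone and 155 FPKM with FLAG-ZBTB24, and DNMT3B was listed under the label DNMT3BKOshZB alone, at 21.1 and 6.46 FPKM per the authors' deposited tables. Of 6 epithelial marker genes, KRT8, KRT18 and EPCAM were at 839, 739 and 179 FPKM in WT per the authors' deposited table, CDH1 at 27.3 and CDX2 at 8.39, and VIL1 was not listed. These WT values stand in rows labelled DNMT3BKOshZB, all of which are lower than WT. Under that label KRT8, KRT18, EPCAM, CDH1 and CDX2 were at 297, 329, 76.6, 6.10 and 3.55 FPKM. CDH1 was at 29.2 FPKM with the tag alone and 42.5 FPKM with FLAG-ZBTB24 (q = 0.967 per the authors' deposited table). With the knockdown CDH1 fell from 46.3 to 23.2 FPKM and CDX2 rose from 6.90 to 18.8 FPKM (q = 0.00493 for both per the authors' deposited table), and their part in the members' differences was not tested. In all, 57 of the 84 members were listed in at least 1 table and 27 were in none.

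With the ZBTB24 knockdown, 14 members were listed, of which 13 core genes had lower values and the paralog RPS27L rose. RPS27L encodes a small subunit protein like RPS27 and is known as a p53-induced gene. It was at 38.3 FPKM with shNT and 71.3 FPKM with shZBTB24 (log2 fold change 0.90, p = 5e-05, q = 0.00493 per the authors' deposited table). It was the sole member past the threshold of q under 0.05, against 22% of the 1965 loci of that table. None of the 13 lower genes passed q under 0.05 in the test of the authors' deposited table (q between 0.123 and 0.355). Of all 884 lower loci 193 passed. The figure of 9.82% for these 193 is a share of all 1965 listed loci, higher and lower together, and not of the lower loci. All 13 had an unadjusted p under 0.05, as did 97% of the listed loci. Lower values were found at 45% of all listed loci.

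The lower large-subunit genes included those of proteins that build the core of the particle. RPL15 was at 458 FPKM with shNT and 285 FPKM with shZBTB24 (log2 fold change -0.69, q = 0.123 per the authors' deposited table). RPL3, whose protein reaches into the peptidyl transferase centre, was at 1827 and 1165 FPKM (-0.65 per the authors' deposited table). RPL4, a protein of the nascent chain exit tunnel, was at 1887 and 1203 FPKM (-0.65 per the authors' deposited table). These are the widest of the differences that were listed as lower, and each lies close to the log2 fold change of 0.50 at which the table starts. RPL10, which is needed for joining of the subunits, was at 667 and 438 FPKM (-0.61 per the authors' deposited table). RPL7A was at 2047 and 1417 FPKM, RPL8 at 2254 and 1566 FPKM and the locus of RPL13A and the pseudogene RPL13AP5 at 3315 and 2304 FPKM per the authors' deposited table. RPL13 was at 363 and 254 FPKM and RPLP0, the scaffold of the ribosomal stalk, at 1882 and 1321 FPKM per the authors' deposited table. The small-subunit genes included RPS16 (1801 and 1239 FPKM) and RPS2 (3572 and 2506 FPKM per the authors' deposited table). Over the 13 genes the log2 fold changes thus fell into a narrow band from -0.69 to -0.51, at levels that differed from 363 FPKM for RPL13 to 3572 FPKM for RPS2 with shNT.

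**Figure D1:**
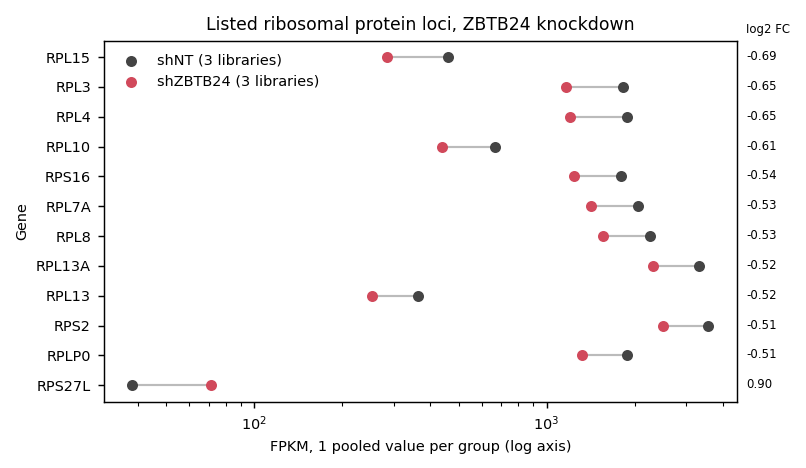
Levels of 12 of the 14 listed members in the ZBTB24 knockdown (x axis, FPKM on a log axis, 1 pooled value per group; y axis, gene; figures at the right, log2 fold change of the authors' deposited table). All 11 core genes shown lie to the left of their shNT value, between -0.69 and -0.51, and RPS27L lies to the right at 0.90.

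In the lines with added FLAG-ZBTB24, 34 members were listed and all 34 had lower values than with the tag alone, against 52.7% of the 1754 listed loci. They were 32 core genes and the paralogs RPS27L and RPL22L1. None passed q under 0.05 per the authors' deposited table (q between 0.422 and 0.987), where 0.57% of all listed loci passed, 0.342% as lower and 0.228% as higher. An unadjusted p under 0.05 was given for 8 of the 34 members, against 9.92% of the listed loci. Among all 924 lower loci it was given for 113. The figure of 6.44% for these 113 is a share of all 1754 listed loci, higher and lower together, and not of the lower loci. Of the 17 other loci with at least 500 FPKM in either group, 6 had such a p. The median log2 fold change of the 34 loci was -0.74, with a range from -1.37 to -0.50. That of all listed loci was -0.51, a value that mixes higher and lower loci and lies next to the listing start of 0.50. For the 81 other loci with at least 100 FPKM in either group the median was also -0.74, and 74 of them were lower.

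The 10 widest differences came from both subunits, 5 loci each. RPS29, a small zinc-binding protein of the 40S head, was at 2923 FPKM with the tag alone and 1135 FPKM with FLAG-ZBTB24 (log2 fold change -1.37, p = 0.0263, q = 0.447 per the authors' deposited table). The locus of RPL37 and LOC100506548 was at 2311 and 1015 FPKM (-1.19 per the authors' deposited table). RPS27, the paralog of RPS27L, was at 3729 and 1794 FPKM (-1.06) and RPL39, which lines the exit tunnel, at 2403 and 1164 FPKM (-1.05 per the authors' deposited table). In each of these 4 loci the value with FLAG-ZBTB24 was below that of the tag alone by more than 1 on the log2 scale. RPL22L1, the paralog of RPL22, was at 1137 and 558 FPKM (-1.03 per the authors' deposited table) and RPL22 itself, an RNA-binding protein on the outside of the large subunit, at 202 and 132 FPKM (-0.61). RPS15A was at 3056 and 1560 FPKM, RPL41, which encodes the smallest ribosomal protein, at 2294 and 1207 FPKM and RPS21 at 1951 and 1035 FPKM per the authors' deposited table. The locus of RPS27A, which encodes a fusion of ubiquitin and a small-subunit protein, was at 1589 and 861 FPKM, and that of RPL36A, RPL36A-HNRNPH2 and HNRNPH2 at 892 and 488 FPKM per the authors' deposited table. The 8 members with p under 0.05 were RPL22L1, RPL37, RPL39, RPL41, RPS15A, RPS21, RPS27 and RPS29. RPS27L was at 104 and 59.6 FPKM (-0.80, q = 0.668 per the authors' deposited table), the opposite side from the knockdown, and the difference between these comparisons was not tested.

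The remaining listed members lay between log2 fold changes of -0.85 and -0.50. Among them were RPL31, RPL23A, RPL34, RPL26, RPS12, RPS23, RPL21, RPL30, RPL28, RPS24, RPL38, RPL37A, RPS25, RPS13, RPL27, RPL23, the stalk protein gene RPLP2, RPL35A, RPS20, RPS26, RPS18 and RPL36. RPS18 had the highest level of all, 4547 FPKM with the tag alone and 3118 FPKM with FLAG-ZBTB24 per the authors' deposited table (-0.54). RPL36 had the smallest listed difference, 1494 and 1055 FPKM (-0.50 per the authors' deposited table). The split between subunits was 19 large and 13 small core genes, with medians of -0.69 and -0.74. RPL36AL, a copy of RPL36A that the naming rule left out, was at 359 and 235 FPKM per the authors' deposited table (-0.62, q = 0.891).

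Other highly expressed loci of the FLAG-ZBTB24 table lay on the same side. With at least 500 FPKM in either group, 48 loci were listed, 31 of them members, and 16 of the 17 other loci had lower values, with a median log2 fold change of -0.995. The exception was the locus of PVT1, a noncoding RNA gene, at 17124 and 32687 FPKM per the authors' deposited table. These included the respiratory chain genes COX7B (661 and 325 FPKM), UQCRB (671 and 287 FPKM) and COX7C (1066 and 613 FPKM), and the splicing protein gene SNRPG (564 and 251 FPKM per the authors' deposited table). Lower values of the members were therefore shared with other abundant mRNAs, and the part of overall level in them was not tested.

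**Figure D2:**
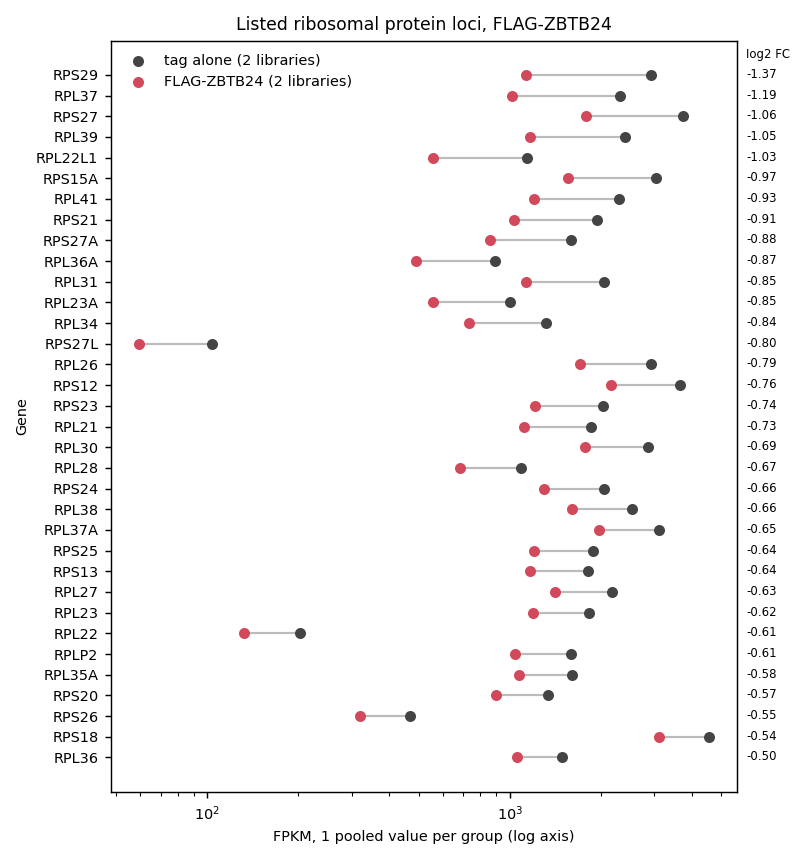
Levels of the 34 listed members with the tag alone and with FLAG-ZBTB24 (x axis, FPKM on a log axis, 1 pooled value per group; y axis, gene; figures at the right, log2 fold change of the authors' deposited table). Every listed member lies lower with FLAG-ZBTB24, from -0.50 for RPL36 to -1.37 for RPS29.

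The core genes listed for the knockdown and for FLAG-ZBTB24 did not overlap. Of 13 and 32 core genes, 0 were shared, which is 0% of either list, whereas 403 symbols of all genes were shared (19.0% of those in the knockdown table and 21.2% of those in the FLAG-ZBTB24 table). The lists differed in mRNA length. The shortest annotated mRNA had a median of 1104 nucleotides for the knockdown genes and 535.5 nucleotides for the FLAG-ZBTB24 genes, against 695 nucleotides over all 77 core genes. Annotated lengths were not checked against the transcripts made in these cells. Some were long for the family, such as RPL27A at 4879, RPL13 at 4358 and RPS23 at 3314 nucleotides. Of the 30 core genes with an mRNA under 600 nucleotides, 22 were listed for FLAG-ZBTB24 and 1, RPS16, for the knockdown. Of the 21 core genes of 900 nucleotides or more, 5 and 8 were listed. Within the listed genes of a table, length and log2 fold change were weakly related (Pearson's r = -0.13 across 13 genes for the knockdown and 0.01 across 32 genes for FLAG-ZBTB24, as a description across genes that share their libraries and are not independent replicates).

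Short mRNAs outside the family lay on opposite sides in these tables. Among other listed single-gene loci with an mRNA under 600 nucleotides, 30 of 33 had higher values with the knockdown and 43 of 49 had lower values with FLAG-ZBTB24. At 900 nucleotides or more, lower values were found at 46.9% of 1668 loci for the knockdown and 52.4% of 1211 loci for FLAG-ZBTB24. With at least 100 FPKM in either group, all 18 short loci were higher with the knockdown and all 21 were lower with FLAG-ZBTB24. At that level, longer mRNAs were mostly lower with FLAG-ZBTB24 too, at 16 of 16 loci from 600 to 900 nucleotides and at 21 of 25 loci (84.0%) of 900 nucleotides or more, while for the knockdown 1 of 21 and 46 of 89 such loci were lower. COX7C, with an mRNA of 407 nucleotides, was at 286 FPKM with shNT and 508 FPKM with shZBTB24, and SNRPG, with 579 nucleotides, at 288 and 427 FPKM per the authors' deposited table. UQCRB, whose annotated 4819 nucleotides put it among the long mRNAs, was at 1322 and 2096 FPKM per the authors' deposited table. FPKM divides by transcript length, and the share of short transcripts can depend on how a library was made as well as on the cells. The part of length in the members' differences was not tested.

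**Figure D3:**
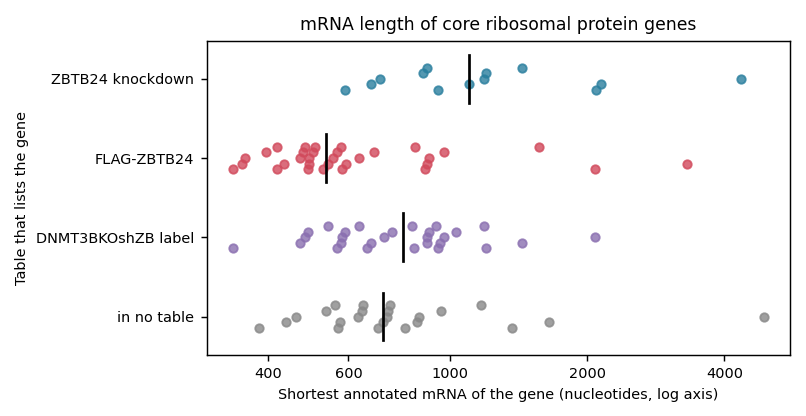
Length of the shortest annotated mRNA (x axis, nucleotides on a log axis) of the core genes listed in each table and of the 23 core genes in no table (y axis). Each point is a gene, vertical jitter carries no value, and the black line is the median, which is 1104 nucleotides for the knockdown and 535.5 nucleotides for FLAG-ZBTB24.

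SnoRNA hosts were more frequent in the knockdown list. Of its 13 core genes, 9 (69.2%) held snoRNA genes, among them RPL3, RPL4, RPL7A, RPL10, RPL13, RPL13A and RPS2, against 27 of all 77 core genes (35.1%) and 9 of the 32 listed for FLAG-ZBTB24 (28.1%). RPL4, RPL7A and RPL13A each held 4. These shares are descriptions without a test. The pyrimidine start was found for 6 of 9 knockdown genes with a promoter sequence (66.7%), 23 of 26 for FLAG-ZBTB24 (88.5%) and 14 of 20 core genes in no table (70.0%).

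In the comparison of the DNMT3B knockout with WT, 1 library was sequenced per group, so no difference has a replicate check. RPL3L, a paralog of RPL3 known from heart and skeletal muscle, was the sole member listed under the label DNMT3BKO, at 0.0420 FPKM in WT and 1.09 FPKM in the knockout (log2 fold change 4.70 per the authors' deposited table). All 2243 loci with that label had higher values than WT, by at least 1 on the log2 scale (100%), so the direction is set by the deposited rows and no member with a lower value could be listed under it. With 1 FPKM added to both values the log2 fold change of RPL3L was 1.006. Its p of 0.271 and q of 0.766 did not pass 0.05 per the authors' deposited table, where 9.36% of the loci with that label had an unadjusted p under 0.05 and 52.8% a log2 fold change of at least 2.

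A further 29 members stood in the same table under the label DNMT3BKOshZB, and all had lower values than WT. No sample analysed here carries that label. All 1112 rows with that label were lower by at least 1 on the log2 scale (100%), so the direction is set by the deposited rows. The sources used here do not say what these rows compare with WT, and no test of them was added. None of the 29 had a q under 0.05 (0.342 to 0.734) and 1, RPL23, had an unadjusted p under 0.05 per the authors' deposited table, against 9.98% of all rows with that label. They were 28 core genes, 20 large and 8 small, and RPL22L1. Their log2 fold changes ran from -1.54 to -1.01 with a median of -1.17, against -1.48 over all rows of that label.

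RPL23 had the widest listed difference, 1739 FPKM in WT and 597 FPKM under that label (-1.54 per the authors' deposited table). RPL3 was at 1694 and 646 FPKM (-1.39), and RPL5, which binds the 5S rRNA and the p53 regulator MDM2, at 1517 and 590 FPKM (-1.36 per the authors' deposited table). RPL41 was at 1289 and 511 FPKM and RPL10A at 1167 and 470 FPKM per the authors' deposited table. The paralogs RPL22 and RPL22L1 were at 229 and 92.2 FPKM (-1.31) and at 637 and 258 FPKM (-1.30 per the authors' deposited table). RPS29 was at 1172 and 473 FPKM, RPL7A at 1682 and 686 FPKM and the locus of RPS3A and SNORD73A at 1412 and 583 FPKM per the authors' deposited table. RPS6, the ribosomal substrate of S6 kinase, was at 2837 and 1296 FPKM (-1.13 per the authors' deposited table). RPL26 had the highest WT level, 4962 FPKM, against 2099 FPKM under the label per the authors' deposited table. Levels in WT ranged from 229 FPKM for RPL22 to that of RPL26, and each listed member was at least 1 lower on the log2 scale.

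Members of this group came from both other lists. Of all 77 core genes, 28 were listed under this label, 13 for the knockdown and 32 for FLAG-ZBTB24. The overlaps within the family are to be read beside these counts as well as beside those of all genes. RPL3, RPL4, RPL7A, RPLP0, RPS2 and RPS16 were also listed for the knockdown, which is 46.2% of its 13 core genes and 21.4% of the 28. Over all genes, 217 symbols were shared (10.2% and 18.3%). RPL21, RPL22, RPL23, RPL23A, RPL26, RPL27, RPL34, RPL35A, RPL41, RPS18, RPS24, RPS27A and RPS29 were also listed for FLAG-ZBTB24, which is 40.6% of its 32 core genes and 46.4% of the 28, and over all genes 247 symbols were shared (13.0% and 20.8%). RPL4 was at 1548 FPKM in WT and 659 FPKM under the label, RPS16 at 1428 and 612 FPKM, RPLP0 at 2157 and 985 FPKM and RPS2 at 3964 and 1805 FPKM per the authors' deposited table. The median mRNA length of the 28 genes was 789 nucleotides, between those of the other lists.

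**Figure D4:**
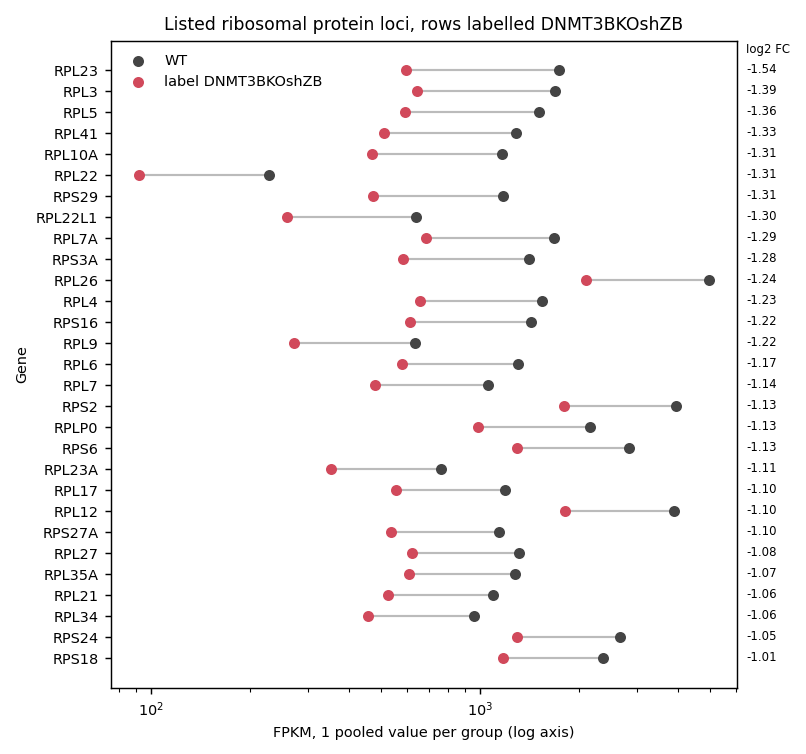
Levels of the 29 members listed under the label DNMT3BKOshZB, with WT (x axis, FPKM on a log axis; y axis, gene; figures at the right, log2 fold change of the authors' deposited table). All lie lower than WT, from -1.01 for RPS18 to -1.54 for RPL23, in rows deposited as lower by at least 1.

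ZBTB24 peaks lay at the promoters of 5 members, RPL32, RPL34, RPL26, RPL7 and RPL29, where a promoter peak is one whose midpoint lies no more than 1000 bp from any annotated start. This is 5.95% of the 84 genes (95% Wilson interval 2.57% to 13.2%), against 3.73% of all named genes and 4.42% of genes with a coding transcript. The interval of the members covers both shares. All 5 were among the 75 members that span under 10 kb (6.67%, interval 2.88% to 14.7%), against 2.45% of all coding genes of such a span. Those genes were not matched to the members for expression level, and the difference was not tested. Wilson intervals treat genes as independent and cover counting error only. The authors' score per peak, of a kind the sources used here do not name, set RPL32 apart from the others. Its peak (hg19 chr3:12882931-12883422) had a score of 48.0, which ranked 4 among 6173 peaks with a median of 8.26, and its midpoint lay 95.5 bp before the transcript start. The peak of RPL34 (chr4:109541211-109541532, score 12.5) lay 350.5 bp before the start and was also within 1000 bp of the antisense gene RPL34-AS1. That of RPL26 (chr17:8286565-8286853, score 12.1) lay 144 bp before the start. The peak of RPL7 (score 8.91) lay 472.5 bp before its start and was also within 1000 bp of a start of RDH10. The weakest, at RPL29 (chr3:52029966-52030273, score 6.15), ranked 5233 and lay 161.5 bp before the start. All 5 midpoints thus lay before the transcript start. A single peak in a gene body, in RPS19 (chr19:42365038-42365134, score 5.25), lay 1098 bp from the nearest start, against 4.99% of all named genes with such a peak.

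RefSeq promoter sequences are printed for the 4 of these genes that could be matched. These genes have the ZBTB24 peak of the highest score in the family and 3 of lower score. The printed windows do not cover each peak in full. Capitals mark AGGACC, the core of CAGGACCT, an 8-base word reported for ZBTB24, on either strand, and the whole word where it was found. The windows are RPL32 (chr3:12841533-12841832, minus strand), RPL34 (chr4:108620326-108620625, plus strand), RPL26 (chr17:8383144-8383443, minus strand) and RPL29 (chr3:51995846-51996145, minus strand), all on GRCh38.p14, and the most upstream start was used where RefSeq gives several.
RPL32: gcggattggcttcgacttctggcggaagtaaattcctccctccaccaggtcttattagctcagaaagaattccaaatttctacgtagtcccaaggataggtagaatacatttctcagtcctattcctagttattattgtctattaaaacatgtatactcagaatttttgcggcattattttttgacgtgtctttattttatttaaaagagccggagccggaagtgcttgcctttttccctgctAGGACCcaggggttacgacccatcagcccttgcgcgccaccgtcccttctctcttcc
RPL34: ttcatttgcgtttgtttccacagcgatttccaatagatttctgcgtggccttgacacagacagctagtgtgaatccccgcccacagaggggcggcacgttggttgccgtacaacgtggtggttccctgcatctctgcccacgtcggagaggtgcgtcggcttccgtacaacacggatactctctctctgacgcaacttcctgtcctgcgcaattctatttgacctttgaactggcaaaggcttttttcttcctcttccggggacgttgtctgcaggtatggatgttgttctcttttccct
RPL26: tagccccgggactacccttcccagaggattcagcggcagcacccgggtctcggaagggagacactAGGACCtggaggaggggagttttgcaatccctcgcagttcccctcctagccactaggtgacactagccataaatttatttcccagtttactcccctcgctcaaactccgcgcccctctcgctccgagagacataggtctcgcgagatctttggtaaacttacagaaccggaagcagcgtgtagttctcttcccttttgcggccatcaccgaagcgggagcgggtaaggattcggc
RPL29: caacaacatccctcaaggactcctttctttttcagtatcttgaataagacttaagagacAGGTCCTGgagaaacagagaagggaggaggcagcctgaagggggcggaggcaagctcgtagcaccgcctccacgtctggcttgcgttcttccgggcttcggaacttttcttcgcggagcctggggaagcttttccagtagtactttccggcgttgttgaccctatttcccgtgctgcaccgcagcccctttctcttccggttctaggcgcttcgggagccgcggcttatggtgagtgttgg

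The whole word was found in the promoter of RPL29, on the minus strand of the gene and with its first base 191 bases before the start. Its core, which every match to the word contains, was found 7 bases before the start in RPL32, 185 bases before it in RPL26 and not in the window of RPL34. That window reached 250 bases before the start, while the midpoint of the RPL34 peak lay 350.5 bp before it. The sequence at that midpoint was therefore not searched, and the absence does not speak for the peak. CAGGACCT was present in 528 of 27305 genes with a promoter sequence (1.93%), in 48 of 704 genes with a ZBTB24 promoter peak (6.82%) and in 7 of 39 genes whose peak scored 20 or more (17.9%). Among members it was present in 1 of 67 (1.49%). AGGACC was present in 18.2% of all genes, 33.0% of genes with a ZBTB24 promoter peak, 51.3% of those with a score of 20 or more and 22.4% of members. RPL32, with the highest score of the family, thus holds the core but not the whole word in this window. CCGGAAG, a word bound by ETS factors, was present in 24 of 67 members (35.8%) against 12.2% of all genes, and among the 4 printed promoters in all of RPL26, RPL29, RPL32 and RPL34.

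The 5 genes with a ZBTB24 promoter peak were looked up in the expression tables. None of RPL7, RPL26, RPL29, RPL32 and RPL34 was listed for the knockdown, where 13 of all 77 core genes were, so that few or none of 5 would be listed at that share. RPL32 and RPL29 were in no expression table. RPL26 was at 2943 FPKM with the tag alone and 1702 FPKM with FLAG-ZBTB24 (-0.79, q = 0.676) and RPL34 at 1314 and 735 FPKM (-0.84, q = 0.632 per the authors' deposited table), within the range of members without a peak. RPL26, RPL34 and RPL7 also stood under the label DNMT3BKOshZB, with log2 fold changes of -1.24, -1.06 and -1.14 per the authors' deposited table.

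DNMT3B peaks were nearly absent from the family. No member held a DNMT3B peak at the promoter, 0 of 84, which allows a share of up to 3.57%, against 0.471% of all named genes. In gene bodies, 3 members (3.57%, 95% Wilson interval 1.22% to 9.98%) held one, against 21.9% of all named genes. They were RPL22 (hg19 chr1:6252603-6255940, score 3.999), RPL26L1 (chr5:172390608-172393891, score 3.68) and RPL31 (chr2:101634412-101635699, score 3.25), where the median score of the list was 3.39. DNMT3B peaks had a median width of 2482 bp, and members are short genes, with a median span of 4668 bp against 24036 bp for coding genes. All 3 were among the 9 members that span 10 kb or more (33.3%, interval 12.1% to 64.6%, against 37.9% of coding genes of that span). Of the 75 shorter members, 0 held a body peak, which allows up to 4%, against 5.46% of 5517 coding genes under 10 kb. Within the class of long genes the interval of the members covers the share of other genes. Among genes under 10 kb span was not matched further, so the 0 of 75 members and the 5.46% are set side by side without a test.

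**Figure D5:**
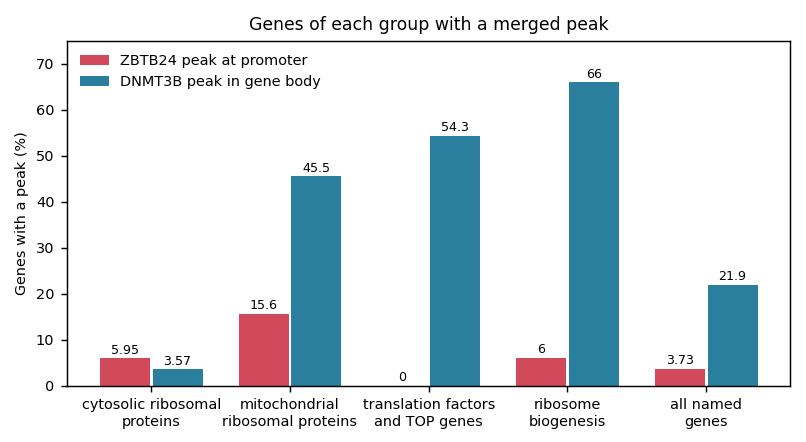
Share of genes (y axis, percent) with a ZBTB24 peak at the promoter or a DNMT3B peak in the gene body, for the cytosolic ribosomal protein genes, 3 other lists of the translation machinery and all named genes (x axis). The members had DNMT3B body peaks in 3.57% against 45.5%, 54.3% and 66.0% of the other lists. Gene span was not matched between the lists, and 75 of the 84 members span under 10 kb. Such peaks were found in 5.46% of coding genes under 10 kb and 37.9% of those of 10 kb or more.

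Further lists of the translation machinery were set beside the family, with no test of the lists. The first list held 46 genes, translation factors and some other genes known for TOP mRNAs. Not all of them are TOP genes, and a pyrimidine start was found for 18 of 35 with a promoter sequence (51.4%). For the knockdown 9 loci of this list were listed, 6 with lower and 3 with higher values and 0 past q under 0.05. All 9 had an unadjusted p under 0.05 per the authors' deposited table. EIF4B, an initiation factor that assists the helicase EIF4A, was at 315 FPKM with shNT and 195 FPKM with shZBTB24 (-0.69), and the elongation factor gene EEF2 at 1227 and 774 FPKM (-0.66 per the authors' deposited table). EIF4G2 was on the other side, at 145 and 262 FPKM (0.86, q = 0.0591 per the authors' deposited table). For FLAG-ZBTB24, 2 loci of this list were in the table, that of NACA and PRIM1 (643 and 411 FPKM, -0.65) and EIF4E (24.9 and 17.2 FPKM, -0.54), both lower, 0 past q under 0.05 and 0 at an unadjusted p under 0.05 per the authors' deposited table. Under the label DNMT3BKOshZB 8 were listed, with EIF3E at 617 and 209 FPKM (-1.56), EIF4B at 285 and 105 FPKM (-1.44) and EEF1B2 at 1093 and 446 FPKM (-1.29 per the authors' deposited table).

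Ribosome biogenesis genes, which encode factors that process rRNA and assemble subunits, were listed at few loci. Of 100 such genes 11 loci were listed for the knockdown, 9 with higher and 2 with lower values, where 1081 of all 1965 listed loci were higher. The difference from the members was not tested. UTP14A, of the small subunit processome, rose from 10.1 to 21.4 FPKM (1.08, q = 0.00493 per the authors' deposited table). The other widest differences of this list were at RRP36 (34.7 and 55.7 FPKM, 0.68) and UTP15 (9.48 and 15.1 FPKM, 0.67 per the authors' deposited table). For FLAG-ZBTB24 8 loci were listed, all lower and 0 past q under 0.05, with 1 at an unadjusted p under 0.05, the snoRNA host locus of TAF1D (211 and 52.1 FPKM, -2.02), followed by TAF1A (11.5 and 5.95 FPKM, -0.95) and MPHOSPH10 (25.4 and 15.2 FPKM, -0.74 per the authors' deposited table). Under the label DNMT3BKOshZB 4 loci were listed, with the locus of GNL3 and SNORD19B at 165 and 48.1 FPKM (-1.78), UTP23 at 21.5 and 9.34 FPKM (-1.21) and WDR12 at 38.6 and 17.7 FPKM (-1.13 per the authors' deposited table). ZBTB24 promoter peaks were at 6 of the 100 genes, with RIOK2, a kinase of late 40S maturation, at a score of 49.98, RIOK3 at 13.0, EBNA1BP2 at 10.1, PELP1 and POLR1D at 8.73, and at 0 of 46 translation factor genes, which allows up to 6.52%.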

How the data were processed

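Per the labels' protocols, a kit for stranded total RNA was used, and per the submitters' processing notes HISAT2, StringTie, Cufflinks and MACS2 were used with hg19, for which the sources used here give no versions. The authors deposited FPKM values, 1 pooled value per group and locus, and per the file headers a log2 fold change of the second over the first group with a p-value and q-value. The authors deposited merged peak lists with 1 score per peak. No column holds values per library (0 columns of other samples were left unused), so no test across libraries was run, and the p and q are those of the authors' tables. The deposited log2 values were checked against the FPKM values. Depth is unknown.

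Members were matched to comma-separated locus symbols. Peaks were assigned to transcript starts (midpoint within 1000 bp) and bodies with Python 3.11.15, pandas 2.3.3, numpy 2.4.6 and scipy 1.17.1, and the assignment was tested on simulated data. Named were members in 2 or more tables, the 10 widest differences per table, all with a peak, and of the other lists the 3 widest per table, those past q under 0.05 and the 5 highest promoter scores. Some members that these rules name are counted but not reported here by name. Members and lists were chosen with earlier results of these data known. Alternatives were other thresholds, FPKM filters, a pseudocount of 1 FPKM, single-symbol loci, other promoter windows, higher-scoring peaks and reference transcripts.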

Additional observations from a re-analysis of the deposited data

How the results depend on the processing

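Of 44 alternatives, 39 kept the direction and stayed within 1.5 times the main value, 5 moved further and 0 reversed. Some of them could not change the result. The lowest values of listed members were 38.3 FPKM for the knockdown and 59.6 FPKM for FLAG-ZBTB24, so filters at 1 and 10 FPKM removed none there. A pseudocount cannot turn a direction, and a count of genes cannot reverse. The log2 fold change of RPL3L was 4.702, and 1.006 with a pseudocount of 1 FPKM. At an unadjusted p under 0.05, 14 members in place of 1 passed for the knockdown and 8 in place of 0 for FLAG-ZBTB24. For the DNMT3B knockout, 0 members in place of 1 were left with at least 10 FPKM, and all rows of the table, both labels together, gave 30. Genes with a ZBTB24 promoter peak numbered 5 within 500 bp, 7 within 2000 bp, 6 with any overlap of the window and 4 with a score of at least the median. No paired analysis was possible because the tables hold 1 pooled value per group, and for the same reason no replicate could be left out. Depth could not be weighed, and unlisted members have no value.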

Other observations

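Mitochondrial ribosomal protein genes, which encode the separate ribosome of mitochondria, were listed with higher values for the ZBTB24 knockdown where they were listed. Of 77 such genes 9 loci were listed, all 9 with higher values, where 1081 of all 1965 listed loci were higher. Among single-gene loci outside the cytosolic family, 30 of 33 with an mRNA under 600 nucleotides were higher. From 600 to 900 nucleotides 59 of 72 were, and at 900 or more 886 of 1668. The 9 loci were not matched to a length class. The difference from the cytosolic family was not tested. Of the 9 loci, 1 passed q under 0.05 and 8 had an unadjusted p under 0.05 per the authors' deposited table. MRPL32 rose from 90.1 to 165 FPKM (log2 fold change 0.87, q = 0.0327 per the authors' deposited table). MRPS18C was at 23.3 and 51.2 FPKM (1.14, q = 0.191) and MRPL13 at 28.2 and 51.1 FPKM (0.86, q = 0.0660 per the authors' deposited table). For FLAG-ZBTB24 5 loci were listed, all with lower values, 0 past q under 0.05 and 0 at an unadjusted p under 0.05 per the authors' deposited table, with MRPS18C at 43.8 and 21.4 FPKM, MRPL1 at 38.9 and 23.0 FPKM and MRPL33 at 170 and 112 FPKM. Under the label DNMT3BKOshZB 4 were listed, with MRPL24 at 86.0 FPKM in WT and 28.8 FPKM, MRPL33 at 101 and 43.3 FPKM and MRPL30 at 15.1 and 7.35 FPKM per the authors' deposited table.

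ZBTB24 promoter peaks were found at 12 of these 77 genes (15.6%, 95% Wilson interval 9.15% to 25.3%). The share was 3.73% of all named genes, 4.42% of genes with a coding transcript and 5.95% of the cytosolic family. The genes were not matched for span or expression level, and the difference was not tested. The highest scores were at MRPS36 (13.1), MRPS12 (12.5), MRPL51 (11.7), MRPL13 (11.1) and MRPL10 (10.6), all well under that of RPL32. Of the 12 genes with a peak, MRPL13 and MRPL1 were listed with higher values for the knockdown, where 9 loci of the 77 genes were listed. MRPL1 and MRPS36 were listed with lower values for FLAG-ZBTB24, and MRPL30 and MRPL45 under the label DNMT3BKOshZB. DNMT3B body peaks were at 35 of the 77 genes (45.5%, interval 34.8% to 56.5%), against 21.9% of all named genes. Among coding genes the share was 5.46% under 10 kb and 37.9% at 10 kb or more, and span was not matched. A start with a C and 4 pyrimidines was found for 6 of 69 genes with a promoter sequence (8.70%), against 70.1% of the cytosolic family, and CCGGAAG for 30 of 69 (43.5%).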
